A study of Homo sapiens with 4 samples.

Results

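The genes that drive and carry out cell division were examined in 4 poly(A)+ RNA-seq libraries of H9 cells, a human embryonic stem cell (hESC) line. The set held 56 genes chosen by name, all 56 of which had a row among the 60671 Ensembl genes of the deposited table. They encode the mitotic kinases and cyclins, the chromosomal passenger complex, the spindle assembly checkpoint, the partners of the anaphase-promoting complex, the centromere and kinetochore, the mitotic kinesins, the spindle and cytokinesis proteins, and 2 chromosome proteins, TOP2A and MKI67. Of the 56, 46 had a mean of at least 1 TPM over the libraries, a share of each library's transcripts that is corrected for transcript length, and were tested, and 10 were below that level.

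Both groups were H9 cells grown in mTeSR, a feeder-free medium, with no treatment. The first group, 2 libraries, is labelled control, and its labels do not say whether it is the parental line or a mock clone made with the empty editing vector. The second group, 2 libraries, is labelled CFIm25 KO+ 3Flag-CFIm25 overexpression and is called KO+OE here, while the title of the series calls the same line KD. CFIm25, encoded by NUDT21, is a subunit of the cleavage factor that binds pre-mRNA near poly(A) sites. By the methods of the study, the edited line is 1 clone that keeps a low level of a CFIm25 protein lacking a short N-terminal stretch, and the Flag-tagged protein was added with a lentivirus under the EF1 promoter. The edited line without re-expression was not analysed here. The study also asked whether editing changed proliferation and the cell cycle, so the comparison shows whether mitotic gene RNA in the re-expressing line stood apart from control.

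As background, mitotic genes are expressed in a wave that begins in S phase and peaks in G2 and M. Cyclin B bound to CDK1 starts mitosis, Aurora and Polo-like kinases build the spindle and mature the centrosomes, and kinetochores tie the chromosomes to microtubules. The checkpoint holds back the anaphase-promoting complex until every chromosome is attached, after which cyclin B and securin are destroyed and the cell divides. hESCs have a short G1 phase and divide quickly, so an asynchronous culture holds many cells in the later phases. The RNA came from whole cultures, in which fewer cells in G2 and M and less RNA per such cell cannot be told apart.

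The 4 libraries were alike in their general features. NUDT21 itself was at 161 and 152 TPM in control and 162 and 157 TPM in KO+OE, and reads of the edited gene and of the transgene cannot be told apart in this table. The stem cell marker POU5F1 was at 2164 to 2212 TPM, LIN28A at 517 to 528 TPM, DNMT3B at 216 to 225 TPM and TDGF1 at 211 to 226 TPM. SOX2 and NANOG were lower, at 18.19 to 19.36 and 15.85 to 19.89 TPM. Among markers of other cell types, SOX17 and PTPRC were at 0, PAX6, TBXT, GATA4 and FOXA2 at no more than 0.32 TPM, and GATA6, COL1A2 and TUBB3 at 4.35 to 8.39, 13.0 to 14.5 and 93.4 to 95.7 TPM. Between 12179 and 12332 genes reached 1 TPM in a library, and mitochondrial genes took 21.0% and 21.1% of the TPM in control and 21.6% and 22.1% in KO+OE. Sequencing depth is unknown because the table holds no counts.

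None of the 46 mitotic genes tested differed between KO+OE and control at an adjusted p under 0.05. Expression was compared with limma on log2(TPM + 1) over 12319 genes, with Benjamini-Hochberg adjustment over all of them, and each fold change given is KO+OE relative to control on that scale, which understates changes of low genes. Over all genes tested, 1 gene passed (0.00812%). It was AC125388.1, which is no mitotic gene and is named here after its value was seen. At an unadjusted p under 0.05 there were 2 mitotic genes, UBE2S and TOP2A, or 4.35% of those tested, against 5.33% of all genes tested. Both were lower in KO+OE, a direction that 3.06% of all genes tested took at this threshold, while no mitotic gene was higher, against 2.26% of all genes tested. The share of nominal differences in the set was thus near that of the table as a whole.

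The changes were small and went both ways. Of the 46 genes, 22 had a positive log2 fold change and 24 a negative one, the median log2 fold change was -0.0024, and the range was -0.73 to 0.34. The median over all genes tested was -0.012. The sign of the mitotic median turned under both rescalings of the libraries, so it carries no direction. Both KO+OE libraries were above both control libraries for 5 genes (14.5% of all genes tested did this) and below both for 10 genes (19.6% of all genes tested). With 2 libraries against 2, an exact permutation test of a single value cannot give a two-sided p below 0.333. Nothing in the labels says that the replicates are separate cultures, so the p-values measure only the spread between these libraries.

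The precision of the comparison was near that of all genes tested and depended on level. The 95% confidence interval of the change lay within 2-fold for 44 of the 46 genes (95.7%), against 92.6% of all genes tested, the exceptions being UBE2S and KIF23. With a pseudocount of 0.1 it did so for 40 of the 46. For the 13 genes at 50 TPM and above, the median standard error of the log2 fold change was 0.0428, and 12 intervals lay within 1.5-fold. The 19 genes between 5 and 50 TPM had a median standard error of 0.0781, with 15 intervals within 1.5-fold. The 14 genes between 1 and 5 TPM had a median standard error of 0.185 and 6 such intervals. The intervals were thus narrower for the abundant regulators than for many low kinetochore and cytokinesis genes. The 1.5-fold counts were not made over all genes tested, so no trait of mitotic genes is read from them.

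**Figure D1:**
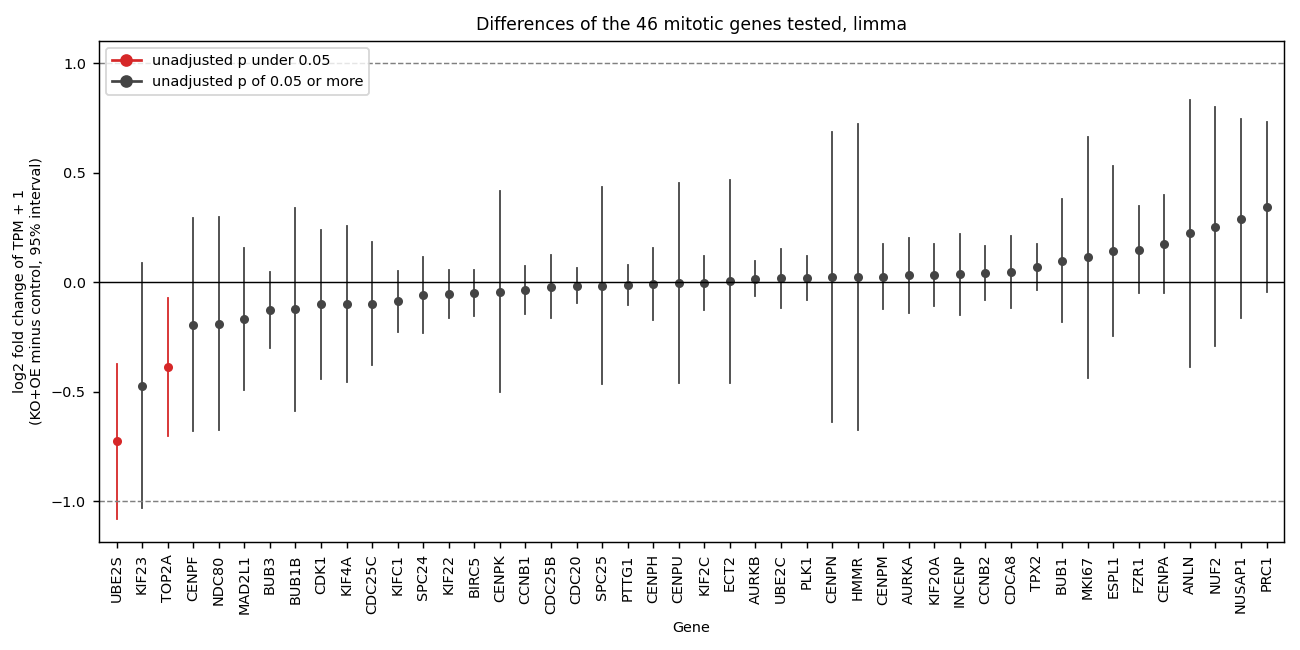
Log2 fold change of each of the 46 mitotic genes tested (points) with its 95% confidence interval (bars), KO+OE minus control, ordered by size; dashed lines mark 2-fold. UBE2S and TOP2A, in red, have intervals that exclude 0 before adjustment, and the intervals of UBE2S and KIF23 pass the lower 2-fold line.

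The summed level of the mitotic genes differed between the groups by about as much as UBE2S did. All 56 added up to 2868 and 2744 TPM in control and 2642 and 2645 TPM in KO+OE. Without UBE2S the sums were 2417 and 2400 TPM in control and 2418 and 2392 TPM in KO+OE, and the groups overlapped. The 10 most abundant genes held 74.7% to 76.8% of the sum in each library. Levels of single genes spread from 0.18 TPM for KIF14 to 365 TPM for PTTG1 as means over the 4 libraries, with a median of 8.60 TPM.

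**Figure D2:**
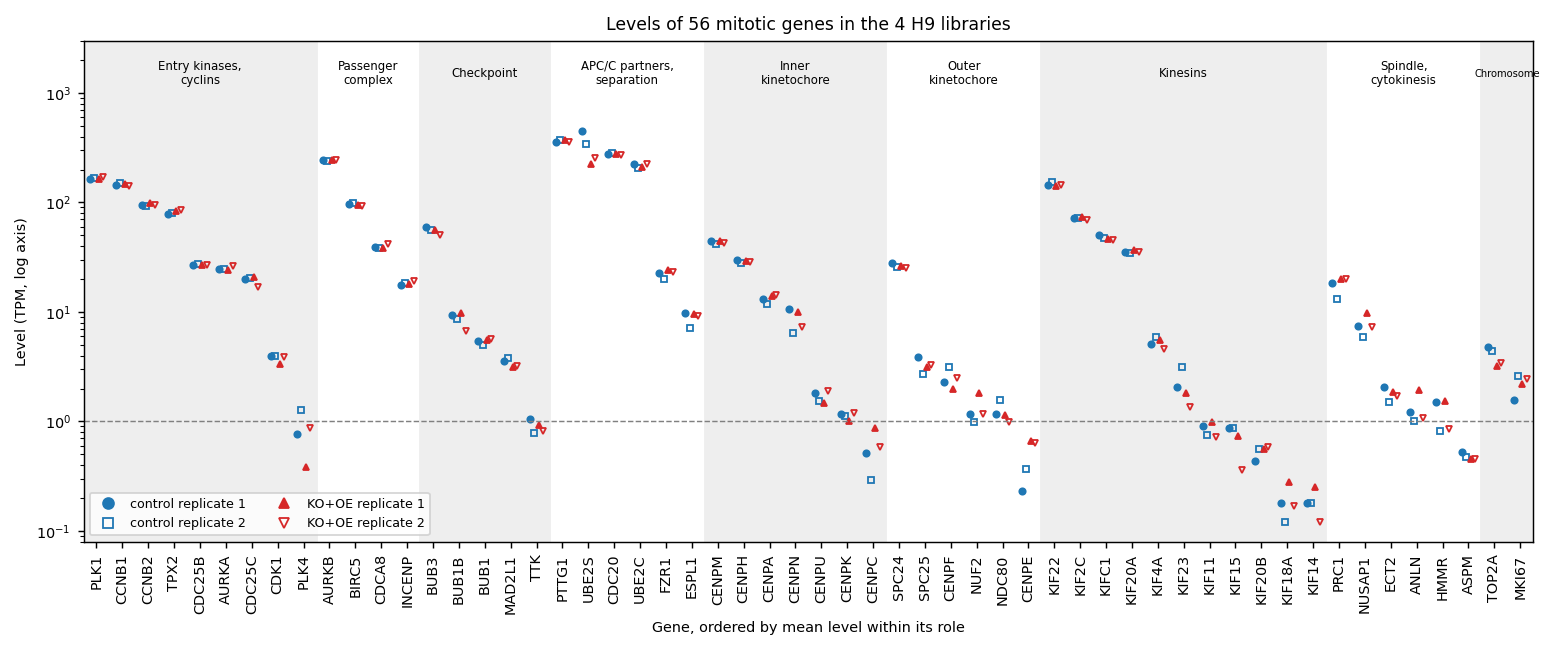
Level in TPM (log axis) of the 56 mitotic genes in each library, grouped by role and ordered by mean level within the role; blue circles and squares are the 2 control libraries, red triangles the 2 KO+OE libraries, and the dashed line is 1 TPM. At 50 TPM and above the 4 points of a gene lie close together except for UBE2S, and the 10 genes with a mean below the line include 5 of the 11 kinesins named KIF.

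Promoters of mitotic genes often hold a cell cycle gene homology region (CHR), bound by the DREAM and MuvB complexes that silence these genes in G1 and switch them on in G2, and CCAAT boxes, bound by NF-Y. RefSeq windows of GRCh38.p14, from 250 bases before to 50 after each gene start, were searched on both strands for TTTGAA or TTCGAA as the CHR and for CCAAT. Other forms of the CHR were not searched for, so a gene called without a CHR match may still hold a CHR. The 2 motifs can share a base, as they did in CDCA8 and MKI67. Windows were found for 48 of the 56 genes, 62 in all. AURKA, BIRC5, BUB3, CENPH, CENPM, TPX2, TTK and UBE2C had no entry. The sequences listed here are the parts before the start of 5 genes with both motifs, from cyclin, kinase, APC/C, centromere and kinesin roles, then of CCNB1, which has CCAAT boxes and no CHR match, and of TOP2A and UBE2S, the 2 genes with an unadjusted p under 0.05. Capitals mark the matches, which in reverse orientation read TTCAAA or ATTGG.
PLK1, chr16:23678759-23678888, plus strand: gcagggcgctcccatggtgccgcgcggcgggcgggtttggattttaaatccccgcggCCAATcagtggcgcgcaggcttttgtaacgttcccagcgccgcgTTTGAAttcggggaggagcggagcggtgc
CCNB2, chr15:59105016-59105145, plus strand: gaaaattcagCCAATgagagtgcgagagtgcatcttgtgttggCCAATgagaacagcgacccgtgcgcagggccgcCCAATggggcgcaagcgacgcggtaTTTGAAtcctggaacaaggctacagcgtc
CDC20, chr1:43358851-43358980, plus strand: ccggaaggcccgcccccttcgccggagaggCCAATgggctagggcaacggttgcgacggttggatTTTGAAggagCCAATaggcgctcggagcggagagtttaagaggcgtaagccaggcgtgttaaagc
CENPA, chr2:26785906-26786055, plus strand: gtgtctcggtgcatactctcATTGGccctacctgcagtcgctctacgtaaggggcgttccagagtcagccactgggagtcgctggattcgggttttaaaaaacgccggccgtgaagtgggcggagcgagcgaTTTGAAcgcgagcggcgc
KIF22, chr16:29790621-29790750, plus strand: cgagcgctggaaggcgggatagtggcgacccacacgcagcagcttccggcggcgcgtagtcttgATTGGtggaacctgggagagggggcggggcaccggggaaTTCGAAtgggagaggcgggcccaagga
CCNB1, chr5:69167020-69167149, plus strand: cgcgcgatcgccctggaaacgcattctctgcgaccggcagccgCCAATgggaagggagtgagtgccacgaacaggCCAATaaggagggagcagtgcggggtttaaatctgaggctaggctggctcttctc
TOP2A, chr17:40417897-40418146, minus strand: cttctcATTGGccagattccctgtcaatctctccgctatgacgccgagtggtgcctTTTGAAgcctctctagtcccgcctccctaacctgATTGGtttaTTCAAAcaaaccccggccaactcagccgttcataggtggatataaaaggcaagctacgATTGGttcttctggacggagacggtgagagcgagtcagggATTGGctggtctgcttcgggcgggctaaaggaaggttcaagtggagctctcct
UBE2S, chr19:55407789-55408038, minus strand: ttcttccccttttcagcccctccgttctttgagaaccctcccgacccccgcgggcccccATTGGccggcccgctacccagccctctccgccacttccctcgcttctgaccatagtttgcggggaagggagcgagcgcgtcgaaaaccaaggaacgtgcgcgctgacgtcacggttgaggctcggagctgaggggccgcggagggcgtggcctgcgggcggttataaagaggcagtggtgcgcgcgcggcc

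In PLK1 and CCNB2 the CHR match began 29 bases before the start, in KIF22 27 and in CENPA 18. In CDC20 the nearer of 2 CHR matches began 65 bases before the start, between CCAAT boxes at 100 and 55. CCNB1 had CCAAT boxes at 87 and 55 bases before the start. TOP2A held 4 CCAAT boxes, the nearest 53 bases before the start, with CHR matches only at 194 and 151. UBE2S had a single CCAAT box, at 191 bases, and no CHR match in its window. KIF22 has another annotated start whose window is not shown.

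Counted by gene over all windows of a gene, 38 of the 48 mitotic genes (79.2%) had a CHR match, 40 (83.3%) a CCAAT box, 32 (66.7%) both and 2, KIF2C and CENPE, neither. Among the 27305 genes with a promoter in the table the shares were 19.5%, 39.7%, 9.02% and 49.8%. By window, the CHR was in 67.7% of the mitotic windows and in 16.4% of all windows. Replication genes, which peak earlier in the cycle, had a CHR match in 2 of 21 and a CCAAT box in 71.4%. The first base of the CHR matches in mitotic windows lay at a median position of -26.5 relative to the start (quartiles -62.5 and 1.0), against -126.0 in the other promoters (quartiles -191.0 and -44.0). For CCAAT the median positions were -78.5 and -97.0. Windows of the same gene can overlap, so these matches are not all distinct. The 38 genes with a CHR match had a median level of 3.88 TPM (0.182 to 276), and the 10 without one 53.5 TPM (0.475 to 365). Those 10 were AURKB, CCNB1, CENPE, CENPK, CENPU, KIF20A, KIF2C, PTTG1, SPC24 and UBE2S. The 8 genes without a window are in neither group. Apart from TTK at 0.895 TPM, their mean levels ran from 25.1 TPM (AURKA) to 216 TPM (UBE2C), so both medians leave out abundant genes. A match is a string of letters and not a measured binding site, and no binding data enter this comparison. The split rests on TTTGAA and TTCGAA alone, so the genes without a match cannot be said to lack a CHR.

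**Figure D3:**
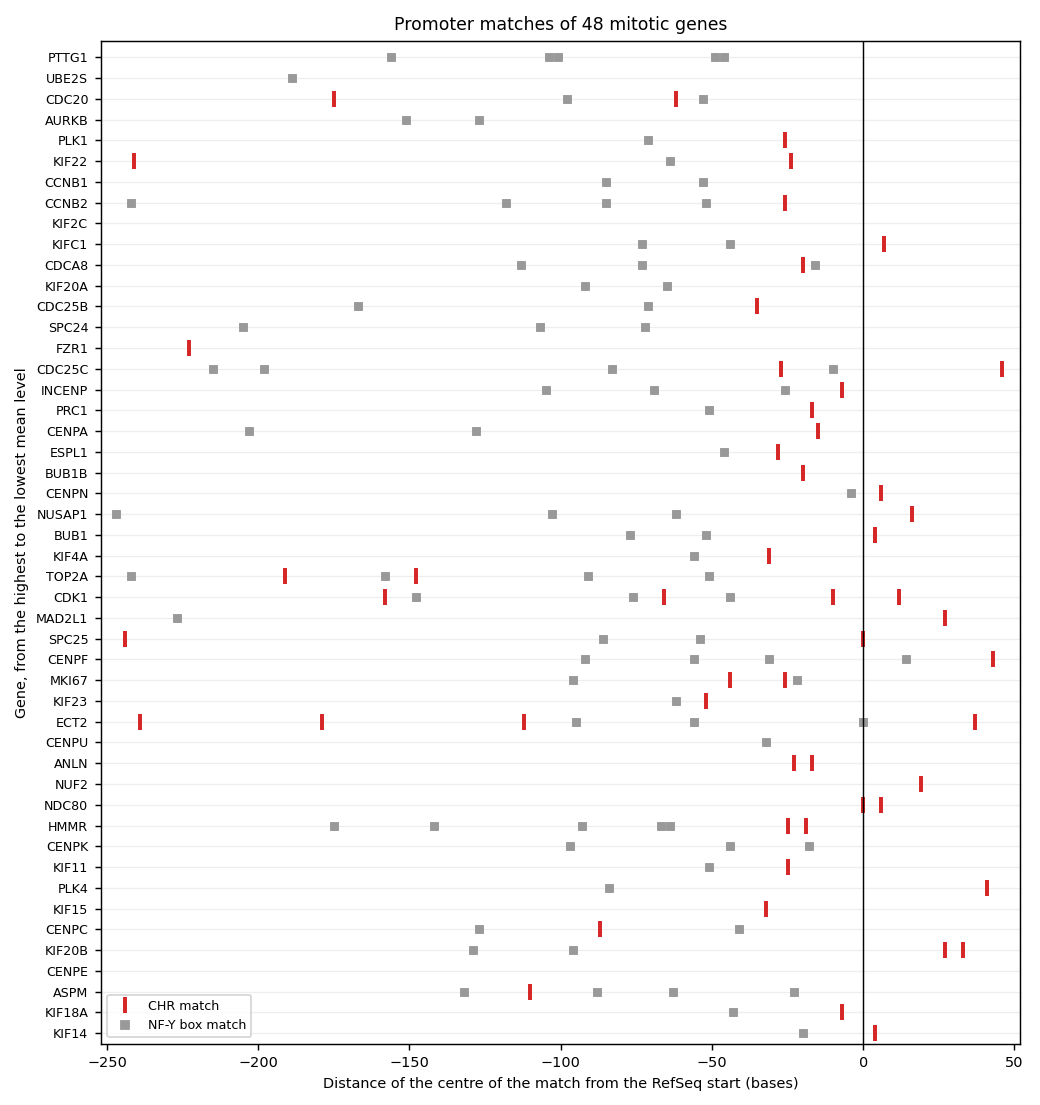
Centre of each CHR match (red bars) and NF-Y box match (grey squares) relative to the RefSeq gene start, in bases, for the 48 mitotic genes with a promoter window, ordered from the highest to the lowest mean level; genes with several starts show the matches of all their windows. The CHR matches gather near the start, with a median first base at -26.5, and the NF-Y boxes lie mostly before them, with a median at -78.5.

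No kinase or cyclin of mitotic entry differed past the threshold, and their levels spread from under 1 TPM for PLK4 to 168 TPM for PLK1. CDK1 (ENSG00000170312, chr10:60778331-60794852), the kinase that drives mitosis, was at 3.95 and 3.95 TPM in control and 3.33 and 3.92 TPM in KO+OE (log2 fold change -0.10, 95% confidence interval -0.44 to 0.24, limma adjusted p = 0.970). Both KO+OE libraries were below control, the second of them only just. CCNB1, the cyclin B1 that activates CDK1, was far more abundant, at 146 and 150.02 TPM in control and 148 and 140.5 TPM in KO+OE. Its level was 35.8 to 44.4 times that of CDK1 in the 4 libraries, and 1.49 to 1.63 times that of CCNB2, which was at 92.1 to 99.2 TPM. In TPM the kinase was thus the lower of the pair in every library. The transcript GC content is 35.4% for CDK1 and 41.9% for CCNB1, and its part in this gap was not tested.

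PLK1 (ENSG00000166851, chr16:23678889-23690367), the Polo-like kinase of centrosomes, kinetochores and cytokinesis, was the most abundant gene of this role, at 165 and 168 TPM in control and 165 and 172 TPM in KO+OE (log2 fold change 0.02, 95% confidence interval -0.08 to 0.12, limma adjusted p = 0.987). AURKA (ENSG00000087586, chr20:56369390-56392215), the Aurora kinase of the spindle poles, was at 24.9 and 24.6 TPM in control and 24.4 and 26.3 TPM in KO+OE (log2 fold change 0.03, 95% confidence interval -0.14 to 0.20, limma adjusted p = 0.988). The groups overlapped for both genes, and both intervals lay within 1.5-fold. TPX2, which brings AURKA to the spindle and activates it, was at 79.2 and 80.1 TPM in control and 82.8 and 84.5 TPM in KO+OE, the only gene of the role with both KO+OE libraries above control. The phosphatases that activate CDK1, CDC25B and CDC25C, were at 26.6 to 27.3 and 17.0 to 20.9 TPM, with CDC25B lower in both KO+OE libraries. PLK4, which starts centriole duplication, was at 0.77 and 1.28 TPM in control and 0.38 and 0.87 TPM in KO+OE and was not tested. Of the 8 genes of this role tested, 0 had an unadjusted p under 0.05 by limma, and the log2 fold changes ran from -0.10 to 0.07.

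The chromosomal passenger complex, the Aurora B kinase with its 3 partners, corrects faulty attachments of kinetochores and works in cytokinesis. AURKB, its kinase, was at 244 and 240.1 TPM in control and 244 and 246 TPM in KO+OE. INCENP, the scaffold, was the lowest of the 4 subunits, at 17.7 and 18.3 TPM in control and 17.8 and 19.1 TPM in KO+OE, and CDCA8 and BIRC5, which place the complex at centromeres, were at 38.4 to 42.0 and 92.6 to 97.9 TPM, with both KO+OE libraries below control for BIRC5. The 4 genes kept their order in every library and none had an unadjusted p under 0.05. AURKB exceeded INCENP, its direct binding partner, 12.9 to 13.8 times, and AURKA 9.37 to 9.98 times.

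Checkpoint genes were low apart from BUB3. BUB3, a WD40 protein that carries BUB1 and BUB1B to kinetochores, was at 59.6 and 56.5 TPM in control and 55.8 and 50.4 TPM in KO+OE, with both KO+OE libraries below control and a log2 fold change of -0.13 that did not pass the test. BUB1, the kinase that marks centromeres for the shugoshins, was at 5.45 and 4.99 TPM in control and 5.59 and 5.72 TPM in KO+OE, slightly higher in both KO+OE libraries. BUB1B, a part of the complex that inhibits CDC20, was at 6.71 to 9.81 TPM, and MAD2L1, which binds CDC20 there, was at 3.12 to 3.82 TPM with both KO+OE libraries below control. TTK, the kinase at the top of the checkpoint, was at 1.06 and 0.78 TPM in control and 0.92 and 0.82 TPM in KO+OE and was not tested. BUB3 stood 8.81 to 11.3 times above BUB1, and 0 of the 4 genes tested had an unadjusted p under 0.05 by limma.

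The activators and enzymes of the anaphase-promoting complex (APC/C) were the most abundant role, with a median of 246 TPM over 6 genes, and held the largest difference of the set. CDC20, the activator of anaphase, was at 274 and 281 TPM in control and 277 and 273 TPM in KO+OE, and FZR1, the activator of late mitosis and G1, at 20.1 to 24.1 TPM, both KO+OE libraries being above control. PTTG1, the securin that restrains separase, was at 360.3 and 374 TPM in control and 369.6 and 358 TPM in KO+OE. ESPL1, the separase that cuts cohesin, was at 9.72 and 7.17 TPM in control and 9.52 and 9.14 TPM in KO+OE, so that securin stood 37.1 to 52.1 times above it. UBE2C, which starts ubiquitin chains on APC/C substrates, was at 223 and 207 TPM in control and 212 and 223 TPM in KO+OE. Apart from FZR1 these genes overlapped between the groups, and none of the 5 had an unadjusted p under 0.05.

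UBE2S (ENSG00000108106, chr19:55399745-55407788), the enzyme that extends the chains UBE2C begins, was at 452 and 345 TPM in control and 224 and 253 TPM in KO+OE. Both KO+OE libraries were below both control libraries (log2 fold change -0.73, 95% confidence interval -1.08 to -0.37, limma adjusted p = 0.762; unadjusted p = 0.00321). The change did not pass the test over all genes. Its ratio to UBE2C was 2.02 and 1.67 in control and 1.06 and 1.13 in KO+OE. UBE2S also varied more between replicates than the other 12 mitotic genes at 50 TPM and above. Its control libraries were 0.3885 apart on the log2 scale and its KO+OE libraries 0.1748. Those 12 genes were 0.0095 to 0.1128 apart in control and at most 0.1431 in KO+OE. Without the first control library the log2 fold change was -0.53, and without the second -0.92. The pseudogenes UBE2SP1 and UBE2SP2 were at no more than 0.12 TPM, and no exon of UBE2S overlapped an expressed gene.

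Centromere and inner kinetochore genes gave no difference past the threshold and were mostly of middle or low level. CENPA, the histone H3 variant that marks centromeres, was at 13.1 and 11.7 TPM in control and 13.96 and 14.3 TPM in KO+OE (log2 fold change 0.17, 95% confidence interval -0.05 to 0.40, limma adjusted p = 0.931), with both KO+OE libraries above control and no call by the test. CENPM was the highest of the role, at 44.3 and 41.9 TPM in control and 44.9 and 42.9 TPM in KO+OE. CENPC, which links CENPA nucleosomes to the outer kinetochore, was the lowest, at 0.51 and 0.29 TPM in control and 0.88 and 0.59 TPM in KO+OE. The remaining subunits of the constitutive centromere network were CENPH at 27.9 to 30.1 TPM, CENPN at 6.47 to 10.7 TPM, CENPU at 1.47 to 1.90 TPM and CENPK at 1.0 to 1.19 TPM. None of the 6 genes tested had an unadjusted p under 0.05, and their log2 fold changes ran from -0.04 to 0.17. CENPN shared 12.6% of its exon bases with the same-strand gene AC092718.4, so its value is uncertain.

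The genes of the NDC80 complex, the main microtubule binder of the kinetochore, had uneven levels in TPM. NDC80 was at 1.17 and 1.56 TPM in control and 1.15 and 0.99 TPM in KO+OE, the KO+OE libraries being lower (log2 fold change -0.19, 95% confidence interval -0.68 to 0.30, limma adjusted p = 0.960). NUF2, its partner at the microtubule end of the complex, was at 1.16 and 0.99 TPM in control and 1.83 and 1.16 TPM in KO+OE (log2 fold change 0.25, 95% confidence interval -0.29 to 0.80, limma adjusted p = 0.948). SPC24, at the chromosome end, was at 27.7 and 25.8 TPM in control and 26.1 and 25.2 TPM in KO+OE, and SPC25 at 2.74 to 3.88 TPM. SPC24 was thus 16.5 to 25.4 times NDC80, 14.3 to 26 times NUF2 and 7.14 to 9.4 times SPC25, in a complex that holds 1 copy of each of the 4 proteins. CENPF, a large protein of the outer kinetochore, was at 2.27 and 3.17 TPM in control and 2.0 and 2.48 TPM in KO+OE (log2 fold change -0.19, 95% confidence interval -0.68 to 0.30, limma adjusted p = 0.959). CENPE, the kinetochore kinesin, was at 0.23 and 0.37 TPM in control and 0.67 and 0.63 TPM in KO+OE. It was below the filter and, in the fit without one, had an unadjusted p of 0.0418 and a limma adjusted p of 0.873. Of the 5 outer kinetochore genes tested, 0 had an unadjusted p under 0.05 by limma.

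The 11 kinesins named KIF spread from 0.18 to 146 TPM, and 5 of them were below 1 TPM. KIF22, which pushes chromosome arms towards the spindle equator, was the highest, at 145 and 152 TPM in control and 141 and 146 TPM in KO+OE. KIF2C, a microtubule depolymerase of centromeres, was at 69.6 to 73.5 TPM, KIFC1, the minus-end motor that focuses poles, at 45.6 to 50.2 TPM, KIF20A, needed for cytokinesis, at 34.9 to 36.7 TPM and KIF4A, the chromokinesin of the midzone, at 4.60 to 5.89 TPM. KIF23, which bundles the central spindle, was at 2.07 and 3.15 TPM in control and 1.82 and 1.35 TPM in KO+OE (log2 fold change -0.47, 95% confidence interval -1.03 to 0.09, limma adjusted p = 0.931), and both KO+OE libraries were below control, as they were for KIFC1. KIF11, the motor that separates the poles and is required for a bipolar spindle, was at 0.91 and 0.75 TPM in control and 0.99 and 0.72 TPM in KO+OE, below the filter, so that KIF22 exceeded it 142 to 203 times. KIF14, a motor of cytokinesis, was the lowest member of the set, at 0.18 and 0.18 TPM in control and 0.25 and 0.12 TPM in KO+OE. KIF15, KIF18A and KIF20B lay between 0.12 and 0.88 TPM. Of the 6 kinesins tested, 0 had an unadjusted p under 0.05 by limma.

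The 5 spindle and cytokinesis genes tested all had a positive log2 fold change, with a median of 0.22 and 0.0044 for ECT2, and none passed the test at an unadjusted p under 0.05. PRC1, which crosslinks the antiparallel microtubules of the midzone, was at 18.2 and 13.2 TPM in control and 20.0 and 20.0 TPM in KO+OE (log2 fold change 0.34, 95% confidence interval -0.04 to 0.73, limma adjusted p = 0.931). NUSAP1, a microtubule-binding protein of the spindle, was at 7.52 and 5.94 TPM in control and 9.72 and 7.26 TPM in KO+OE (log2 fold change 0.29, 95% confidence interval -0.16 to 0.75, limma adjusted p = 0.938). ANLN, the scaffold of the contractile ring, was at 1.23 and 1.0 TPM in control and 1.94 and 1.07 TPM in KO+OE (log2 fold change 0.22, 95% confidence interval -0.39 to 0.83, limma adjusted p = 0.960), and only its first KO+OE library stood above control. ECT2, which activates RhoA at the cleavage site, was at 1.5 to 2.06 TPM, HMMR, a microtubule-binding spindle protein, at 0.81 to 1.55 TPM, and ASPM, a protein of the spindle poles, was at 0.53 and 0.47 TPM in control and 0.45 and 0.45 TPM in KO+OE and was not tested. PRC1 shared 57.6% of its exon bases with AC068831.6 and NUSAP1 81.4% with AC087721.2, both on the same strand, so the values of PRC1 and NUSAP1 are uncertain. AC068831.6 was at 6.57 and 7.24 TPM in control and 5.58 and 5.05 TPM in KO+OE, lower where PRC1 was higher, and its part in the value of PRC1 was not tested. In all, 12 of the 56 genes shared exon bases with another gene at 1 TPM or more.

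Among the chromosome proteins, TOP2A (ENSG00000131747, chr17:40388525-40417896), the topoisomerase that untangles sister chromatids, was at 4.81 and 4.44 TPM in control and 3.20 and 3.40 TPM in KO+OE. Both KO+OE libraries were below control (log2 fold change -0.39, 95% confidence interval -0.70 to -0.07, limma adjusted p = 0.928; unadjusted p = 0.0255), a change that did not pass the test over all genes. MKI67, the Ki-67 protein that coats mitotic chromosomes and the usual marker of cycling cells, was at 1.57 and 2.61 TPM in control and 2.18 and 2.42 TPM in KO+OE, with the control values at both ends of the range. In the 4 fits that left out a library, the log2 fold change of TOP2A stayed between -0.435 and -0.34, while its unadjusted p by limma rose to between 0.0597 and 0.11 with 1 library in an arm.

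Low members of the set were mostly genes with AT-rich transcripts. Levels correlated with the GC content of the canonical transcript across the 56 genes, with a Spearman correlation of 0.781 to 0.792 in the 4 libraries, and with transcript length at -0.561 to -0.548. These are descriptions across genes of the same libraries. Of the 20 genes with a GC content under 40%, 9 were below the filter, and their levels ran from 0.182 TPM (KIF14) to 3.96 TPM (TOP2A) with a median of 1.15 TPM. The 20 genes between 40% and 50% had a median of 15.6 TPM and the 16 genes at 50% and above 59.5 TPM, from 8.89 TPM (ESPL1) to 318 TPM (UBE2S). Protein-coding genes outside the set that were tested had medians of 2.8, 5.88 and 15 TPM in these bands, and correlations of 0.299 to 0.311 with GC content and -0.334 to -0.328 with length (n = 10735). Over the 46 mitotic genes tested the correlation was 0.674 to 0.686 with GC content and -0.404 to -0.388 with length. Over the 32 whose mean reached 5 TPM it was 0.220 to 0.251 with GC content and -0.567 to -0.542 with length. The more abundant of 2 partners had the higher GC content for CCNB1 (41.9%) against CDK1 (35.4%), SPC24 (53.3%) against NDC80 (39.6%) and AURKB (55.7%) against AURKA (44.4%), but the lower for PTTG1 (45.7%) against ESPL1 (57.0%), CDC20 (56.9%) against FZR1 (63.8%) and BUB3 (41.1%) against BUB1 (42.1%). The part of GC content in these gaps was not tested.

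**Figure D4:**
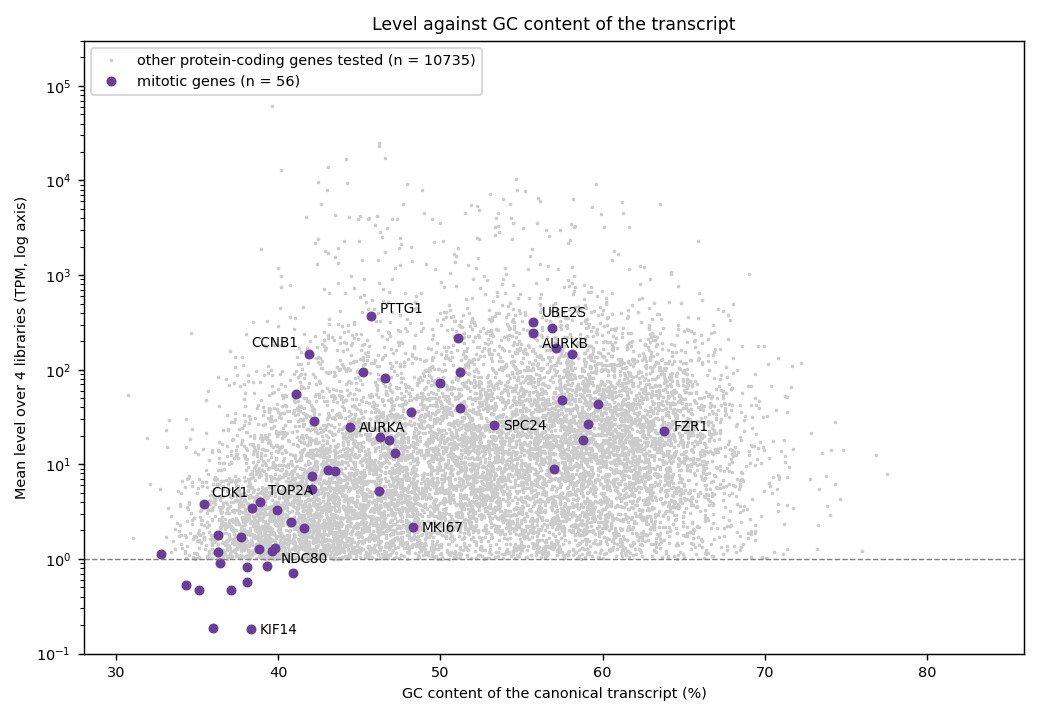
Mean level over the 4 libraries in TPM (log axis) against the GC content of the canonical transcript in percent, for the 56 mitotic genes (purple) and 10735 other protein-coding genes tested (grey); the dashed line is the filter of 1 TPM, below which other genes are not drawn. Mitotic genes under 40% GC lie below 4 TPM, and those at 50% and above lie above 8 TPM.

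The rest of the mitotic pathway was read from the same fit. Of 96 further genes, among them the other APC/C subunits, kinetochore and centromere genes, checkpoint kinases, condensins, spindle genes and the transcription factors of the G2/M programme, 82 were tested, and 0 had an adjusted p under 0.05 by limma. At an unadjusted p under 0.05 there were 3 (3.66%). LIN37, a subunit of the MuvB core, was at 8.12 and 8.64 TPM in control and 12.3 and 11.8 TPM in KO+OE (log2 fold change 0.48, limma adjusted p = 0.705). OIP5, which helps load CENPA, was at 6.03 and 6.17 TPM in control and 7.94 and 7.35 TPM in KO+OE (0.28, limma adjusted p = 0.928). It shared 352 exon bases with NUSAP1 on the opposite strand, and the part of this overlap in its value was not tested. Exon overlap was not computed for the other genes of this list. NCAPD3, a condensin II subunit, was at 5.33 and 6.49 TPM in control and 4.63 and 3.98 TPM in KO+OE (-0.38, limma adjusted p = 0.928). Of the 82 genes, 44 had a positive and 38 a negative change, with a median log2 fold change of 0.0097. A CHR match was found in 42 of 81 of these genes with a window (51.9%).

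Genes of DNA replication, which precedes mitosis, were divided evenly by direction. All 24 were tested, 12 had a positive change and 12 a negative one, the median log2 fold change was -0.0014, and 0 had an adjusted p under 0.05 by limma. RRM2, a subunit of ribonucleotide reductase, was the single gene with an unadjusted p under 0.05, at 30.3 and 33.2 TPM in control and 26.3 and 28.5 TPM in KO+OE (log2 fold change -0.21, limma adjusted p = 0.928). Both S-phase and mitotic genes were thus without a difference past the threshold in these libraries, within the intervals given above.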

How the data were processed

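Poly(A)+ RNA of H9 hESCs was sequenced as paired-end reads in 4 libraries. The authors deposited 1 table of 60671 Ensembl genes, whose header names no unit. The deposited values were read as TPM, since the 4 columns sum to between 986853 and 987078 and hold decimals; 0 other columns held values of samples. The submitters' processing notes name hg38, HISAT2, featureCounts, Subread and DESeq2, with no versions or roles, so what each of them did to make the TPM values is not given in the sources used here. TPM divides by transcript length and by the library total, so 1 very abundant gene lowers the rest. With no counts, depth and counting error are unknown.

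The sample titles gave the groups, the columns' samples and the replicate numbers. Genes whose mean over the libraries reached 1 TPM were fitted with limma 3.58.1 in R 4.3.3 on log2(TPM + 1), with a mean-dependent prior and group as the only term, two-sided, with Benjamini-Hochberg adjustment over all 12319 genes tested. The fit was tested on simulated data. The members and the other gene lists were chosen with earlier results of these data known. Every member is named. Values in each library are given for a set of main regulators, for the highest and lowest gene of each role, and for the 5 largest changes each way or an unadjusted p under 0.05; in the other lists, genes at that threshold are named.

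Transcript length and GC content were taken from a GENCODE annotation of GRCh37. Exon overlap was computed from the GRCh37 exon coordinates of that annotation, whereas the submitters' notes name hg38. Gene positions and promoter windows are RefSeq, GRCh38.p14. Same-numbered libraries did not deviate together (correlation -0.049), so no pairing was used. In all, 12 other settings were tried: pseudocounts of 0.1 and 5, no filter, a filter of 5 TPM, median-ratio and quantile scaling, a prior without trend, the replicate block and leaving out each library.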

Additional observations from a re-analysis of the deposited data

How the results depend on the processing

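No mitotic gene reached an adjusted p under 0.05 under any of the 12 other settings. The count over all genes went from 1 to 0 with pseudocounts of 0.1 and 5, no filter, a mean of at least 5 TPM, quantile normalization and the replicate block. At an unadjusted p under 0.05, the pseudocounts of 0.1 and 5 gave 670 and 634 of 12319 genes tested. No filter gave 1314 of 26942 and at least 5 TPM 412 of 7393. Quantile normalization and the block gave 649 and 673 of 12319. The replicate numbers share only a number. Under the block NUSAP1 joined the mitotic genes at an unadjusted p under 0.05, which gave 3 of 46 tested, against 673 of 12319 genes tested. Among the other mitotic genes CENPT joined at that threshold (log2 fold change -0.255), while OIP5 and NCAPD3 left it, which gave 2 of 82 tested. The limma adjusted p was 0.873 for each of the genes that joined or left.

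The median log2 fold change of the mitotic genes turned positive with no filter (0.00101), with at least 5 TPM (0.0173), with median-ratio rescaling (0.0087) and with quantile normalization (0.0059), and ran from -0.0176 to 0.00858 when a library was left out. At an unadjusted p under 0.05, at least 5 TPM left 1 of 32 mitotic genes tested, as TOP2A was then not tested, against 412 of 7393 genes tested. This filter also left 1 of the other mitotic genes. OIP5 and NCAPD3 were tested with the same fold changes and no longer reached that threshold (limma adjusted p = 0.893 and 0.899). A filter alters the unadjusted p of a gene still tested only through limma's prior, which is fitted over all genes tested. When a library was left out, the median log2 fold change of the other mitotic genes ran from 0.00135 to 0.031. Mitotic genes without overlap then numbered 25 to 37 of 46 (54.3% to 80.4%), against 66.1% to 67.2% of all genes tested; the highest count was without control replicate 1 and the lowest without control replicate 2. Left-out fits assume that the lone library varies like the other group. The log2 fold change of AURKA ran from -0.02 to 0.0846, of PLK1 from -0.00945 to 0.0492 and of ANLN from -0.0289 to 0.477. Without changing sign, PRC1 ran from 0.129 to 0.559, NUSAP1 from 0.103 to 0.479, NUF2 from 0.0591 to 0.449, CENPA from 0.101 to 0.249, KIF23 from -0.689 to -0.254, CENPF from -0.368 to -0.0173, NDC80 from -0.308 to -0.0691 and CDK1 from -0.193 to -0.00877. UBE2S stayed lower under all settings, with limma adjusted p from 0.333 to 0.929. At 5 TPM and above the correlation of level with GC content was 0.244 and that with transcript length -0.551. Depth is unknown, and standard errors were largest below 5 TPM.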
